A study of Homo sapiens with 6 samples.

Results

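The transcripts described here are those of 9 genes that degrade, move, make or sense haem: HMOX1, HMOX2, BLVRA, BLVRB, SLC48A1, FLVCR1, ALAS1, FECH and BACH1. They were chosen by name from a deposited table of 58735 genes, as a set proposed with the PM2.5 against Control differences of these same libraries known. All 9 passed the filter on low counts that left 14975 genes for testing. The cells were MDA-MB-231, a long-established line of human breast cancer cells of the triple-negative class, without oestrogen or progesterone receptors and without amplified HER2. There were 3 libraries labelled PM2.5, from cells exposed to fine airborne particles, and 3 labelled Control. RNA was taken at 48 h in every library. The labels give no particle dose, no vehicle and no batch, all libraries come from 1 cell line, and how separate the cultures were is not stated, so the errors below measure the spread between these libraries.

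Haem is the iron-holding ring that carries oxygen and electrons in globins, cytochromes and many enzymes, and in free form it promotes oxidation. ALAS1 starts its synthesis in the mitochondrion and FECH finishes it by inserting the iron. Haem oxygenases open the ring into biliverdin, carbon monoxide and iron, and biliverdin reductases turn biliverdin into bilirubin. BACH1, a repressor that pairs with small MAF proteins, sits on the enhancers of HMOX1 and leaves them when it binds haem, while NRF2 (gene NFE2L2) activates the same sites. HMOX1 is for this reason a common marker of oxidative and particle stress.

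Because of that choice the differences of the 9 genes are a description, and no p-value is given for them. Directions are for the libraries as labelled. HMOX1, known to rise under oxidative and particle stress, was 15.8-fold lower in PM2.5 libraries, which runs against that background, and whether the labels are the right way round was not tested. In the same libraries BACH1 was 1.91-fold higher. SLC48A1, which moves haem into the cytosol, was 1.97-fold lower, and HMOX2 was 1.36-fold higher. The other 5 genes differed by less than 1.5-fold. Levels below are in CPM, read counts brought to a common library size with TMM factors, a scaling that makes the bulk of genes comparable between libraries. Fold changes come from an edgeR fit over all tested genes, as do all adjusted p-values (quasi-likelihood F test, Benjamini-Hochberg).

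HMOX1 encodes the inducible haem oxygenase. It is a plus-strand gene of chromosome 22 (35380361 to 35394214, GRCh38, ENSG00000100292), and no exon of another gene overlaps its exons. PM2.5 replicates 1 to 3 held 52.3, 44.9 and 56.7 CPM, against 808, 757 and 873 CPM in Control replicates 1 to 3. Every Control library lay far above every PM2.5 library, and the groups did not overlap. These levels rest on 1487 to 1946 reads per PM2.5 library and 24533 to 29843 per Control library. The log2 fold change was -3.99 ± 0.12 (SE, n = 3 each), and 5 of the 14975 genes had a lower estimate. By length-scaled level HMOX1 ranked between 1804 and 2170 among all genes of a PM2.5 library, and between 94 and 129 in a Control library. RNA was measured in bulk, so fewer cells with much HMOX1 and less HMOX1 in each cell cannot be told apart.

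HMOX2, the haem oxygenase that most cells make at a steady level, was higher in PM2.5 libraries. It is a plus-strand gene of chromosome 16 (4474690 to 4510347, GRCh38, ENSG00000103415). PM2.5 replicates held 31.6, 31.2 and 35.9 CPM, against 25.5, 23.9 and 23.3 CPM in Control replicates. Every PM2.5 library was above every Control library, and the log2 fold change was 0.44 ± 0.11 (SE). Exons of NMRAL1 on the opposite strand cover 6.01% of its exonic bases. The strand setting of the counts is not given in the sources used here, so these reads may be shared, and NMRAL1 itself did not pass the test (log2 fold change -0.11 ± 0.13).

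**Figure D1:**
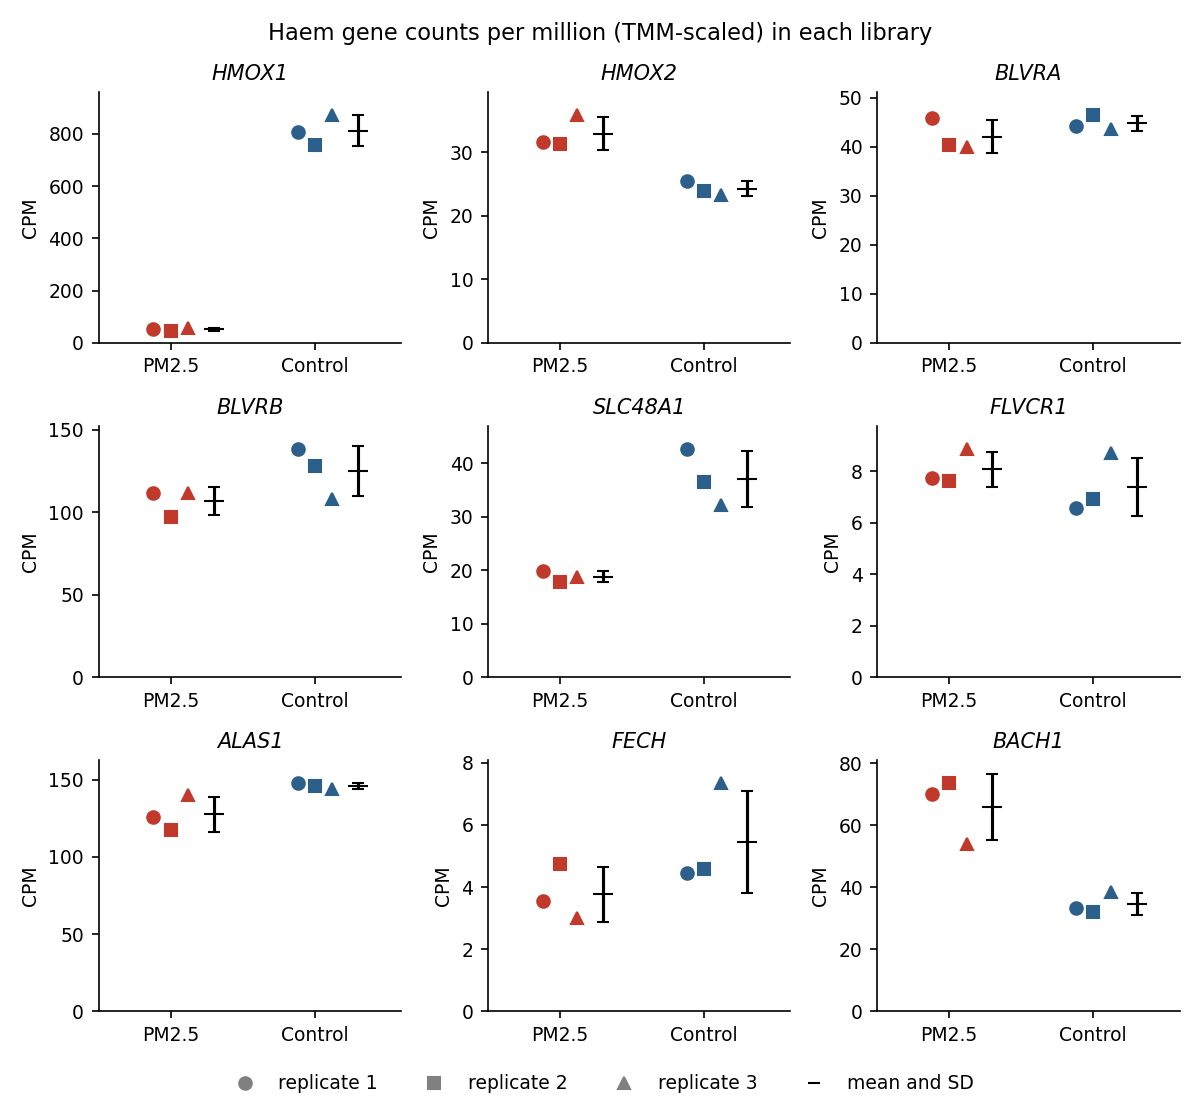
TMM-scaled levels in CPM (axes from 0) of the 9 haem genes in each of the 3 PM2.5 and 3 Control libraries, with the mean and SD of each group. HMOX1 sits between 44.9 and 56.7 CPM in PM2.5 libraries and between 757 and 873 CPM in Control libraries, and BLVRA, BLVRB, FLVCR1 and FECH overlap between the groups.

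The balance of the isozymes also differed between the groups. On the TPM scale (which divides counts by gene length and so compares genes) HMOX1 made up 72.3%, 69.4% and 71.4% of all haem oxygenase transcripts in PM2.5 replicates, against 98.04%, 98.04% and 98.3% in Control replicates. With HMOX2 added in, total haem oxygenase was 107 ± 7.62 TPM in PM2.5 libraries and 1095 ± 149 TPM in Control libraries (SD, n = 3 each), a 10.3-fold difference. TPM carries no TMM factors, so differences between groups in TPM can depart from those in CPM. HMOX1 was the more abundant isozyme in all 6 libraries. Its share depends on the lengths used: with the longest coding transcript in place of all exons it averaged 64.7% in PM2.5 libraries and 97.5% in Control libraries.

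The biliverdin reductases, the next step, did not differ in this way. BLVRA, the main reductase of adult tissue, is a plus-strand gene of chromosome 7 (43758680 to 43807342, GRCh38, ENSG00000106605). It had 45.9, 40.3 and 40.03 CPM in PM2.5 replicates, against 44.2, 46.5 and 43.6 CPM in Control replicates, with overlapping groups and a log2 fold change of -0.09 ± 0.10 (SE). BLVRB, known as the fetal reductase and as a flavin reductase, is a minus-strand gene of chromosome 19 (40447765 to 40465840, GRCh38, ENSG00000090013). It had 112, 96.9 and 112 CPM in PM2.5 replicates, against 138, 128 and 108 CPM in Control replicates. Control replicate 3 lay within the PM2.5 range, and the log2 fold change was -0.23 ± 0.11 (SE). Without that library the estimate was the lowest of all settings tried, at -0.32.

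Haem oxygenase transcripts were fewer than reductase transcripts in PM2.5 libraries and outnumbered them in Control libraries. Haem oxygenase was 0.347 ± 0.0241 times biliverdin reductase in PM2.5 libraries and 3.53 ± 0.578 times in Control libraries (TPM, SD, n = 3 each). BLVRA and BLVRB together gave 307 ± 14.1 TPM in PM2.5 libraries and 311 ± 10.03 TPM in Control libraries. That difference is smaller than the spread between libraries on this scale, which carries no TMM factors. In TMM-scaled CPM both PM2.5 means were lower, with overlapping groups. BLVRA had 42.1 ± 3.31 CPM in PM2.5 and 44.8 ± 1.55 CPM in Control libraries, and BLVRB 107 ± 8.56 and 125 ± 15.3 CPM. BLVRB was the more abundant reductase in every library, by 2.59 to 3.01 times in PM2.5 libraries and 2.68 to 3.38 times in Control libraries.

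**Figure D2:**
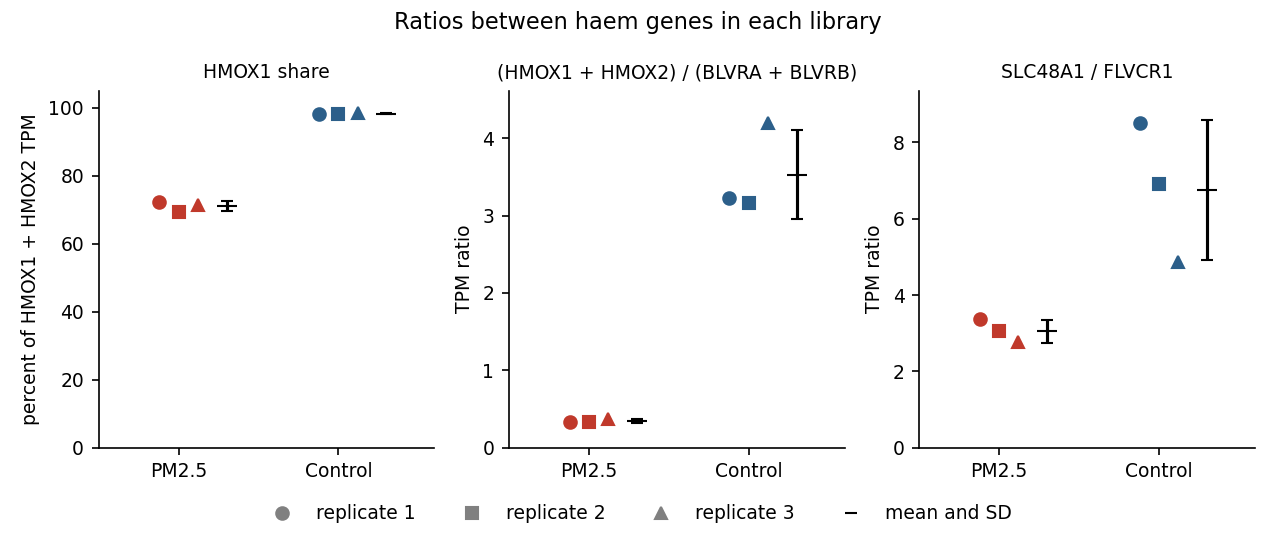
Ratios of length-scaled levels (TPM) in each library, with group means and SDs: the share of HMOX1 in both haem oxygenases in percent, haem oxygenase over biliverdin reductase, and SLC48A1 over FLVCR1. Each ratio is lower in all 3 PM2.5 libraries than in all 3 Control libraries.

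SLC48A1 (also called HRG1) carries haem out of endosomes and lysosomes into the cytosol. SLC48A1 is a plus-strand gene of chromosome 12 (47753916 to 47782753, GRCh38, ENSG00000211584). It had 19.9, 17.8 and 18.7 CPM in PM2.5 replicates, against 42.7, 36.4 and 32.2 CPM in Control replicates. The groups did not overlap, the Control libraries were the more spread out, and the log2 fold change was -0.98 ± 0.12 (SE). Exons of RAPGEF3 and HDAC7, on the opposite strand, cover 2.34% of its exonic bases. Both of these neighbours were higher in PM2.5 libraries, RAPGEF3 by 0.77 ± 0.10 (adjusted p = 4.54e-05) and HDAC7 by 0.31 ± 0.10 on the log2 scale (adjusted p = 0.026, from 0.0158 to 0.124 over the other settings and lost in 4 of them).

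FLVCR1 is known as a haem exporter of the plasma membrane and more recently as a choline transporter. It is a plus-strand gene of chromosome 1 (212858255 to 212899363, GRCh38, ENSG00000162769). PM2.5 replicates held 7.75, 7.63 and 8.86 CPM, against 6.57, 6.91 and 8.69 CPM in Control replicates. The groups overlapped and the log2 fold change was 0.13 ± 0.17 (SE). The importer exceeded the exporter 3.36, 3.05 and 2.76 times in TPM in PM2.5 replicates, against 8.51, 6.90 and 4.86 times in Control replicates. All PM2.5 values of this ratio lay below all Control values, and Control replicate 3 was nearest to them.

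ALAS1, the rate-limiting enzyme of haem synthesis outside the red cell lineage, is switched off by haem itself. It is a plus-strand gene of chromosome 3 (52198086 to 52214327, GRCh38, ENSG00000023330). PM2.5 replicates held 126, 117 and 139.9 CPM, against 148, 146 and 144 CPM in Control replicates. The groups did not overlap, but the difference was small, with a log2 fold change of -0.19 ± 0.09 (SE). The spread was wider among PM2.5 libraries, with a coefficient of variation of 8.98% against 1.28% among Control libraries.

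FECH, which completes haem, is a minus-strand gene of chromosome 18 (57548283 to 57586772, GRCh38, ENSG00000066926). It was the lowest of the 9 genes in CPM, at 3.54, 4.74 and 3.003 CPM in PM2.5 replicates, against 4.44, 4.57 and 7.34 CPM in Control replicates. The groups overlapped, Control replicate 3 was highest, and the log2 fold change of -0.54 ± 0.24 (SE) ranged from -0.74 to -0.27 over the other settings. With 103 to 157 reads per PM2.5 library and 136 to 251 per Control library, it was also the least deeply counted. Its processed pseudogene FECHP1 had 0 counts.

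BACH1 is a plus-strand gene of chromosome 21 (29194071 to 29630751, GRCh38, ENSG00000156273). PM2.5 replicates held 70.2, 73.6 and 53.9 CPM, against 33.3, 31.9 and 38.5 CPM in Control replicates. The groups did not overlap, and the log2 fold change was 0.93 ± 0.12 (SE). Among PM2.5 libraries replicate 3 had the least BACH1 and the most HMOX1, and replicate 2 the most BACH1 and the least HMOX1, whereas in Control libraries replicate 3 had the most of both. In TPM, HMOX1 exceeded BACH1 2.57 ± 0.729 times in PM2.5 libraries and 75.6 ± 2.56 times in Control libraries (SD, n = 3 each). The intronic and antisense genes of the locus were barely detected, at 17 counts for BACH1-IT1, 6 for BACH1-IT2 and 5 for BACH1-AS1 over the 6 libraries, and LINC00189, which covers most of the 4.50% of its exonic bases under other genes, had 0.

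**Figure D3:**
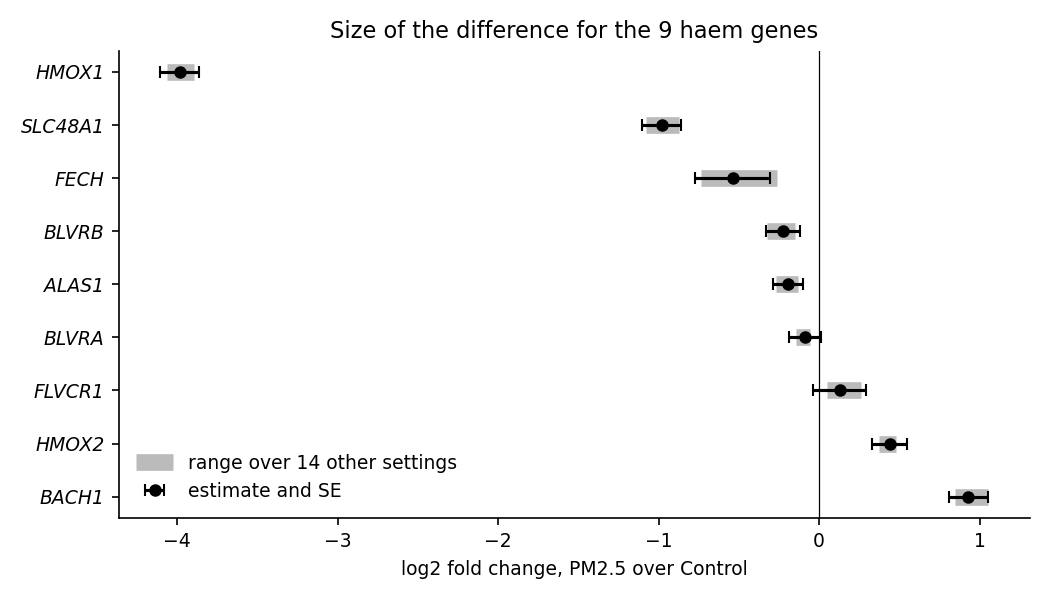
Log2 fold change of PM2.5 over Control for the 9 haem genes, with SE, and the range over 14 other processing settings as a grey bar. No grey bar crosses 0, but the SE bars of BLVRA and FLVCR1 do. HMOX1 stands alone near -3.99, and BACH1 is the highest at 0.93.

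Counted by the fit's threshold (adjusted p under 0.05), 4 of the 9 genes were called, HMOX1 and SLC48A1 lower and HMOX2 and BACH1 higher, beside 31.9% of all tested genes. The groups stood clear of each other for 5 of the 9, these 4 and ALAS1, beside 44.3% of all tested genes. Since the genes were chosen with this contrast known, nothing is read from these counts. The median log2 fold change was -0.19 for the 9 genes and -0.01 for all tested genes. HMOX1 was the member past 2-fold, as were 9.14% of all tested genes.

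Ordered by length-scaled level, the PM2.5 libraries ran BLVRB (225 ± 11.2 TPM), ALAS1 (179 ± 10.8), BLVRA (82.2 ± 6.33), HMOX1 (75.7 ± 6.47), HMOX2 (30.8 ± 1.73), BACH1 (30.5 ± 5.68), SLC48A1 (13.6 ± 0.588), FLVCR1 (4.46 ± 0.274) and FECH (3.01 ± 0.815 TPM, SD, n = 3). The ranges of BLVRA and HMOX1 overlapped there, as did those of HMOX2 and BACH1. In Control libraries HMOX1 stood at the top with 1075 ± 148 TPM, followed by BLVRB (233 ± 14.3), ALAS1 (183 ± 10.4), BLVRA (77.9 ± 4.28), SLC48A1 (23.8 ± 2.14), HMOX2 (20.2 ± 0.867), BACH1 (14.3 ± 2.44), FECH (3.92 ± 1.48) and FLVCR1 (3.66 ± 0.833 TPM), with overlap between FECH and FLVCR1. HMOX1 alone was 11.7% ± 0.685 of the summed TPM of the 9 genes in PM2.5 libraries and 65.6% ± 2.70 in Control libraries. The other 8 genes summed to 568 ± 14.8 TPM in PM2.5 libraries and 560 ± 9.80 TPM in Control libraries. Since TPM carries no TMM factors, the direction of so small a difference between groups is not settled.

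**Figure D4:**
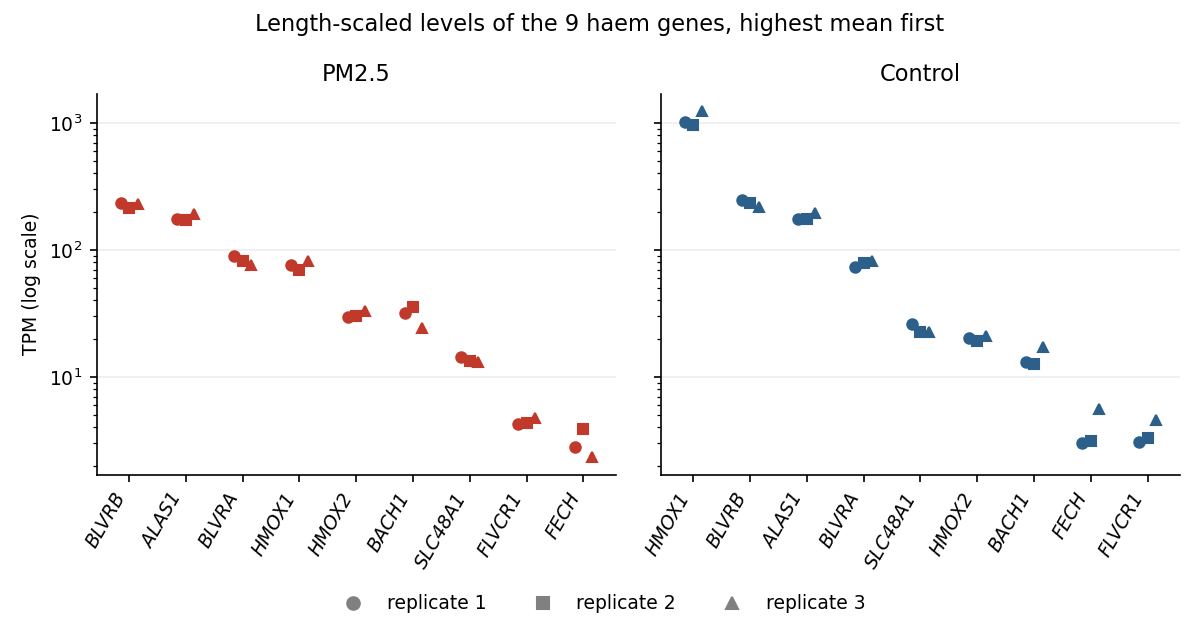
Length-scaled levels (TPM, log axis) of the 9 haem genes in each library, ordered by group mean, PM2.5 on the left and Control on the right. HMOX1 is beside BLVRA in PM2.5 libraries (75.7 TPM) and highest in Control libraries (1075 TPM). The enzymes BLVRB, ALAS1 and BLVRA have similar TPM in both, on a scale without TMM factors.

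The bases around the transcript start are shown for the called members that have a window and for ALAS1, so that the letters can be compared. RefSeq windows of 250 bases before to 50 after the start (GRCh38.p14) were found for 8 of the 9 genes, 11 windows in all, and not for HMOX1. Capitals mark matches to the motifs searched on both strands, and the windows shown have none of these motifs in common.
SLC48A1, chr12:47772988-47773287, plus strand: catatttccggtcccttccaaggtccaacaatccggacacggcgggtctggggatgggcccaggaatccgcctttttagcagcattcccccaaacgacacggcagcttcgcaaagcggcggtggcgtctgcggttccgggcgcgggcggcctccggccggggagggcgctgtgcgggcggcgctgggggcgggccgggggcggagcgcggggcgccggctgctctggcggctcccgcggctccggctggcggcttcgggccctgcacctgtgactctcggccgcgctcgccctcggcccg
HMOX2, chr16:4474486-4474785, plus strand: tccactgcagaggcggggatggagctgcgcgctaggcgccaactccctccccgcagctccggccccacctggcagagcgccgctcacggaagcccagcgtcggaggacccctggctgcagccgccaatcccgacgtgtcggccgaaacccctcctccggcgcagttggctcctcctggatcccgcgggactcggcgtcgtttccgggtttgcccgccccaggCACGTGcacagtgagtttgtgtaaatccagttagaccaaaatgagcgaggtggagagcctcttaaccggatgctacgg
BACH1, chr21:29298672-29298971, plus strand: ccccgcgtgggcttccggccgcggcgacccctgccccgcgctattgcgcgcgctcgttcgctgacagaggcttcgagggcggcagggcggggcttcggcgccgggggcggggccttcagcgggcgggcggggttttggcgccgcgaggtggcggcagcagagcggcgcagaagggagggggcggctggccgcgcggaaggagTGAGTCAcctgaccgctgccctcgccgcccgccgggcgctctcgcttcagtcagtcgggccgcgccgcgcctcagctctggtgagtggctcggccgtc
ALAS1, chr3:52197833-52198132, plus strand: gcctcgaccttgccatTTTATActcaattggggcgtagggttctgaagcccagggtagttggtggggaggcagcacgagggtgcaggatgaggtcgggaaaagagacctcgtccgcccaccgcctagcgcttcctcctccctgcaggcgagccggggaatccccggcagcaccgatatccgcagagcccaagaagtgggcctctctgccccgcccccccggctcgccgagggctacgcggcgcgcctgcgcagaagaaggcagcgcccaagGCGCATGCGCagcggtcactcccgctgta

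The 4 windows shown are rich in G and C, from 66.7% in HMOX2 to 77.7% in BACH1, against a median of 58.7% over all 35116 windows. The other HMOX2 window, at 41.3% G and C, held no motif. Of the other BACH1 windows, 1 at 78.0% held none and 1 at 34.3% held TATAAA on the minus strand 233 bases before its start. The SLC48A1 window held none of the motifs. In HMOX2 the capitals mark an E box, CACGTG, 28 bases before the start, found in 7.26% of all windows. In BACH1 they mark an AP-1 site, TGAGTCA, 48 bases before the start, found in 4.95% of all windows. In ALAS1 they mark the core of an NRF1 site, GCGCATGC, read on both strands as 2 overlapping matches from 22 bases after the start, found in 3.05% of all windows, and TATAAA on the minus strand 234 bases before it, found in 11.5%. NRF1, the nuclear respiratory factor that controls mitochondrial genes, is known to drive ALAS1. The core of the antioxidant response element that NRF2 and BACH1 share, TGACNNNGC, occurred in 1 of the 11 windows, that of FECH, and in 13.3% of all windows. GCTGAGTCA, which contains TGAGTCA, is a stricter form of that core when read on the opposite strand. It occurred in none of the 11 and in 0.561% of all windows, which are among the 13.3%. A match is a run of letters, not a tested site.

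Neighbours on the chromosomes differed in both directions. TOM1, an endosomal sorting gene 32.4 kb from HMOX1, was 69.7 ± 3.17 CPM in PM2.5 libraries and 95.7 ± 11.8 CPM in Control libraries (log2 fold change -0.46 ± 0.10, SE, adjusted p = 0.00306). MCM5, a subunit of the replicative helicase, starts 5.8 kb beyond HMOX1 and did not pass the test at 48.4 ± 4.58 CPM in PM2.5 libraries and 40.2 ± 3.08 CPM in Control libraries (adjusted p = 0.0646, from 0.0314 to 0.225 over the other settings and under 0.05 in 3 of them). At BACH1 the nearest tested coding gene, MAP3K7CL, 18.2 kb away, was 3.27 ± 0.887 CPM in PM2.5 libraries and 0.816 ± 0.425 CPM in Control libraries, a log2 fold change of 2.01 ± 0.35 (adjusted p = 0.000374 in the same fit). POC1A, a centriole gene 43.4 kb from ALAS1, rose by 0.93 ± 0.12 on the log2 scale, and COA1, a neighbour of BLVRA, by 0.75 ± 0.11. ALAS1 (-0.19 ± 0.09) and BLVRA (-0.09 ± 0.10) themselves were not called. On their other sides URGCP, beside BLVRA, fell by 0.51 ± 0.12 (adjusted p = 0.00359), and TWF2, beside ALAS1, did not pass the test (adjusted p = 0.396).

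By distance between log2 CPM profiles over the 6 libraries, each centred on its own mean, the 5 genes nearest to HMOX1 were MMP3, DUSP15, SLC16A6, the pseudogene AC245297.1 and MT1E. MMP3, a matrix protease, was nearest at a distance of 0.739, with 15.2, 14.5 and 16.5 CPM in PM2.5 replicates, against 151, 159.8 and 181 CPM in Control replicates. MT1E, a zinc-binding metallothionein, was the fifth at 1.43, with 34.97 ± 1.99 CPM in PM2.5 libraries and 279 ± 66.1 CPM in Control libraries. None of the other 8 haem genes was among them, which their smaller fold changes, given above, already fixed.

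Beyond the 9 genes, 51 further genes of haem biology in 6 lists were examined, of which 45 passed the filter on low counts. These lists were also chosen with earlier results of these data known, so their counts and adjusted p-values are a description. Of these 2 rose and 12 fell in PM2.5 libraries, 31.1% of the 45, which is close to the 31.9% called among all genes. Higher calls make up 16.1% and lower calls 15.8% of all tested genes. Without PM2.5 replicate 1 the number of falls was 7 and the total 9, and without Control replicate 3 the number of rises was 5. Over all genes 3245 were called without PM2.5 replicate 1 and 5280 without Control replicate 3, against 4775 with all libraries.

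Of the 6 tested enzymes between ALAS1 and FECH 2 fell and 0 rose, and ALAS2, the red cell form of the starting enzyme, had 23 counts in all and was not tested. UROD, which trims the side chains of the ring precursor, had 33.6, 29.6 and 34.2 CPM in PM2.5 replicates, against 50.4, 43.5 and 42.8 CPM in Control replicates (log2 fold change -0.49 ± 0.11, SE, adjusted p = 0.00257). CPOX, the next enzyme, fell by 0.27 ± 0.09 (adjusted p = 0.0314), a call lost in 7 of the 14 other settings, with adjusted p from 0.00722 to 0.126. ALAD, UROS and PPOX did not pass the test, with log2 fold changes from -0.14 to -0.02.

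Of 12 tested genes of mitochondrial transport and control 5 fell and 0 rose. SLC25A38, which brings glycine into the mitochondrion for ALAS1, had 54.1 ± 4.73 CPM in PM2.5 libraries and 79.1 ± 8.93 CPM in Control libraries (log2 fold change -0.55 ± 0.11, SE, adjusted p = 0.00107). TMEM14C, which moves the ring precursor inward, fell by 0.42 ± 0.09 (adjusted p = 0.00311), and FAM210B by 0.43 ± 0.11 (adjusted p = 0.00589, but 0.0619 without PM2.5 replicate 1). SLC25A39, a glutathione carrier, and CLPP, a protease, also fell, by 0.33 ± 0.10 and 0.32 ± 0.11. Each of those calls was lost in 5 of the 14 other settings, with adjusted p up to 0.11 and 0.183. The iron carriers SLC25A37, at 495 ± 10.3 CPM in PM2.5 libraries and 535 ± 8.68 CPM in Control libraries, and SLC25A28 did not pass the test.

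**Figure D5:**
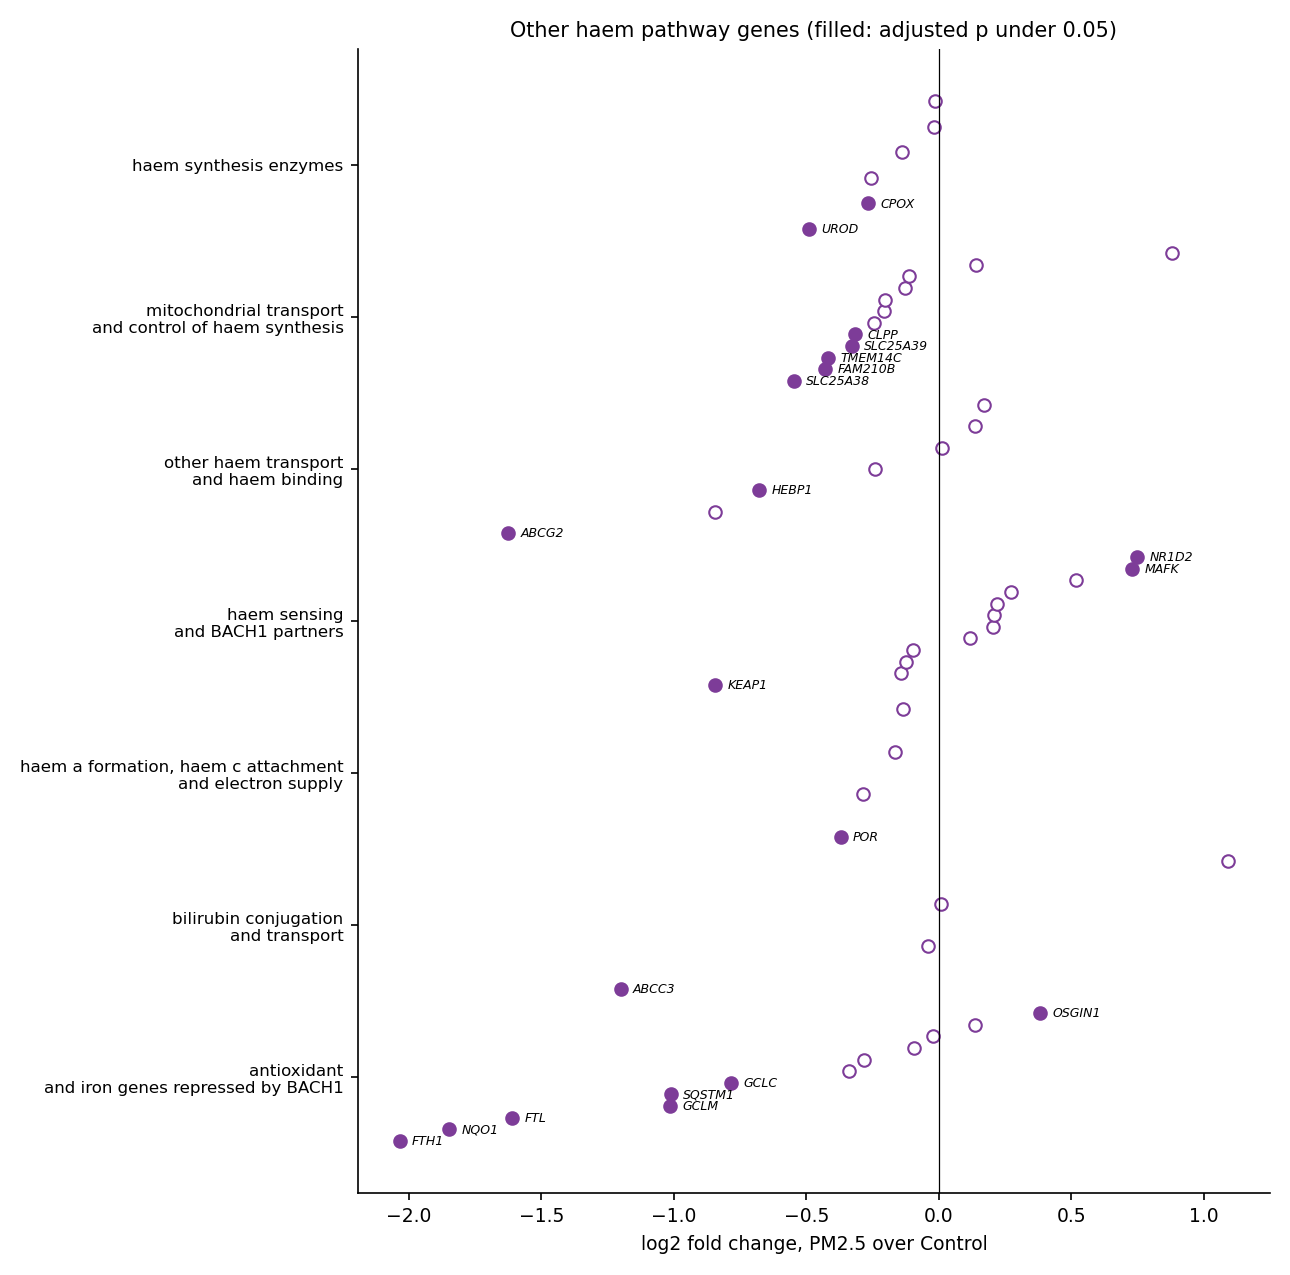
Log2 fold change of PM2.5 over Control for the tested genes of 7 lists around haem, 1 circle per gene, filled and named where the adjusted p was under 0.05. In the sensing list KEAP1 lies at -0.84 and MAFK and NR1D2 at 0.73 and 0.75, and 6 of the 7 called antioxidant and iron genes lie to the left of 0.

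Among other haem carriers and binders 2 of 7 tested fell. ABCG2, an exporter that accepts haem and porphyrins, had 0.893, 0.543 and 0.437 CPM in PM2.5 replicates, against 1.80, 2.38 and 1.64 CPM in Control replicates (log2 fold change -1.63 ± 0.36, SE, adjusted p = 0.00275). HEBP1, a cytosolic haem-binding protein, had 89.3 ± 3.74 CPM in PM2.5 libraries and 143 ± 14.3 CPM in Control libraries (adjusted p = 7.37e-05). FLVCR2, the relative of FLVCR1, was at 1.02 ± 0.0382 CPM in PM2.5 libraries and 1.83 ± 0.598 CPM in Control libraries and did not pass the test (adjusted p = 0.0584, under 0.05 in 2 other settings). The receptor for haem bound to haemopexin, LRP1, was abundant in both groups, at 531 ± 59.9 CPM in PM2.5 libraries and 473 ± 82.8 CPM in Control libraries, and did not pass the test except without Control replicate 3. CD163, the haemoglobin receptor, had 0 counts in each PM2.5 library, which allows up to 0.0865 to 0.0932 CPM, and 4, 8 and 10 counts in Control replicates.

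Of 12 tested partners of BACH1 and haem sensors 2 rose and 1 fell. The fall was KEAP1, the adaptor that keeps NRF2 low, with 37.8, 29.5 and 38.3 CPM in PM2.5 replicates, against 66.9, 56.1 and 66.7 CPM in Control replicates (log2 fold change -0.84 ± 0.12, SE, adjusted p = 5.46e-05). MAFK, a small MAF protein that pairs with both BACH1 and NRF2, had 179, 171 and 196 CPM in PM2.5 replicates, against 110.1, 117 and 102 CPM in Control replicates (log2 fold change 0.73 ± 0.10, SE, adjusted p = 2.8e-05). NR1D2, a nuclear receptor that binds haem, rose by 0.75 ± 0.12 (adjusted p = 0.000292). NFE2L2 itself, at 62.6 ± 11.9 CPM in PM2.5 libraries and 51.8 ± 3.23 CPM in Control libraries, MAFG, MAFF and the BACH1-degrading ubiquitin ligase subunits FBXO22 and FBXL17 did not pass the test. MAFG was called without Control replicate 3 and NFE2L2 without PM2.5 replicate 3.

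POR, the reductase that feeds electrons to haem oxygenases, was the member of its list of 4 that fell, by 0.37 ± 0.11 on the log2 scale (adjusted p = 0.0192), a call lost in 3 settings with adjusted p up to 0.102. COX10 and COX15, which make haem a, and HCCS, which attaches haem to cytochrome c, did not pass the test, although COX10 was called without PM2.5 replicate 3. On the bilirubin side 1 of 4 tested fell: ABCC3, an exporter of bile pigment conjugates, had 58.3 ± 5.82 CPM in PM2.5 libraries and 134 ± 27.8 CPM in Control libraries (log2 fold change -1.20 ± 0.13, SE, adjusted p = 3.56e-06). Its relative ABCC1 was at 115 ± 8.51 CPM in PM2.5 libraries and 114 ± 3.22 CPM in Control libraries. UGT1A1, which conjugates bilirubin, had 0 counts in all 6 libraries. Same-strand exons of other UGT1A genes cover 49.9% of its exonic bases, and reads there may not be assigned to it.

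A last list held 12 antioxidant and iron genes that BACH1 is known to repress, many of them also NRF2 targets, and 6 fell and 1 rose, with a median log2 fold change of -0.56. That is 58.3% called, beside 31.9% of all tested genes and a median of -0.01 over them. This list too was chosen with earlier results of these data known, so nothing is read from that share or median. NQO1, the quinone reductase, had 72.9 ± 2.95 CPM in PM2.5 libraries and 262 ± 13.8 CPM in Control libraries (log2 fold change -1.85 ± 0.09, SE). The ferritin chains, which store the iron that haem oxygenase frees, had log2 fold changes of -2.03 ± 0.12 (FTH1) and -1.61 ± 0.14 (FTL). GCLM, which modifies the rate-limiting step of glutathione synthesis, fell by 1.02 ± 0.09. Ferritin chains have many near-identical copies, so the level of each is uncertain. Exons of other genes also cover 62.4% of the exonic bases of FTH1, 18.1% of MAFK, 17.7% of NQO1 and 12.6% of HEBP1, all on the opposite strand. Same-strand exons of other genes cover 85.0% of SRXN1, 25.6% of COX15, 17.6% of NFE2L2 and 13.9% of OSGIN1. Reads there may be shared whatever the strand setting. SLC7A11, SRXN1, TXNRD1, ME1 and the iron exporter SLC40A1 did not pass the test, although TXNRD1 was called with no filter on low counts and ME1 by DESeq2. OSGIN1 rose by 0.38 ± 0.12 (adjusted p = 0.0267), a call lost in 4 of the other settings.

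Total counts ran from 31846136 to 34691009 per library. The groups separated on the first principal component of log2 CPM (56.9% of the variance), and Control replicate 3 stood apart on the second (15%). Of the markers of the line, VIM (2683 CPM in PM2.5 and 2290 CPM in Control libraries) and CD44 were abundant and did not pass the test (VIM was called with library totals only), and CDH1, EPCAM and PGR had 3, 17 and 10 counts in all and ESR1 had 0. The other 3 tested line markers were called. The keratins KRT18 (305 ± 25.8 CPM in PM2.5 libraries and 171 ± 14.3 CPM in Control libraries, adjusted p = 1.19e-05) and KRT8 (adjusted p = 0.0155, from 0.00195 to 0.0622 over the other settings and lost in 3 of them) rose by 0.84 ± 0.10 and 0.40 ± 0.12 on the log2 scale. ERBB2, the HER2 gene, had 43.1 ± 5.51 CPM in PM2.5 libraries and 64.9 ± 7.01 CPM in Control libraries (log2 fold change -0.59 ± 0.11, SE, adjusted p = 0.00093). The part of these differences in the results on haem genes was not tested. Red cell markers summed to at most 0.0576 CPM in PM2.5 libraries and 0.0293 CPM in Control libraries, with 6 of 8 at 0, globins included. Of 6 macrophage markers PTPRC and AIF1 had 0 counts, and the list summed to between 3.51 and 4.32 CPM in PM2.5 libraries and between 2.17 and 3.09 CPM in Control libraries. For CD68 of this list 81.7% of the exonic bases lie under same-strand exons of another gene, so its count may be too low. CD14 of this list rose, at 3.08 ± 0.605 CPM in PM2.5 libraries and 1.77 ± 0.581 CPM in Control libraries (adjusted p = 0.039, from 0.0178 to 0.147 over the other settings and lost in 5 of them), and its part in the results was not tested.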

How the data were processed

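Gene expression was measured by RNA sequencing in 6 libraries of MDA-MB-231 cells. The authors deposited raw counts per gene, with gene lengths, for 3 PM2.5 and 3 Control libraries, per the file headers. Per the labels' protocols RNA was extracted with TRIzol and libraries were made with an NEBNext Ultra kit. The submitters' processing notes name GRCh38. Which aligner, counter and strand mode were used is not given in the sources used here. For all 58735 genes the identifier matched GENCODE 29, and the deposited length equalled that of the merged exons.

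Counts were filtered with filterByExpr (minimum count 10, total 15) and fitted in R 4.3.3 with edgeR 4.0.16 (TMM factors, glmQLFit and glmQLFTest, two-sided, group only), with Benjamini-Hochberg adjustment over 14975 genes and calls at 0.05. Each SE was derived from the estimate and its F statistic (absolute estimate over root F). TPM used raw counts and the deposited gene lengths, without TMM factors. The fit was checked on simulated counts in which far fewer genes changed than were called here, and it recovered most of the largest changes set. Its recovery of smaller changes is not given here. DESeq2 1.42.0, limma 3.58.1, other scalings and filters, a replicate block and leaving out each library were the alternatives. Replicates differed beyond counting noise (chi-square per degree of freedom of at least 5.85). Limits given for 0 counts (3 counts of the total) cover counting error only, and no molecular identifiers are described.

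The 9 genes and the lists were chosen with earlier results of these data known. The genes named are the 9 members, up to 4 called genes per list with the smallest p, and those behind a count of 5 or fewer. Some of the nearest tested coding genes, the 5 profiles nearest to HMOX1 (pseudocount 0.1 CPM) and markers are also named. Other genes named without a call or beyond these were chosen after their values were seen. Promoter windows are RefSeq's, on GRCh38.p14. Comparisons of the encoded proteins were planned and not analysed here. The values of 1 gene of the haem synthesis list are not reported here.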

Additional observations from a re-analysis of the deposited data

How the results depend on the processing

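Over 14 other settings the log2 fold change kept its sign for each of the 9 haem genes, and HMOX1 ranged from -4.07 to -3.90. These settings reuse the same libraries. The estimates of BLVRA (-0.09 ± 0.10) and FLVCR1 (0.13 ± 0.17) were smaller than their SEs, so their directions are not settled. HMOX1, HMOX2, SLC48A1 and BACH1 were called in all 14. BLVRB was also called without Control replicate 3, and FECH without PM2.5 replicate 2 and with no filter on low counts. The number of members whose groups did not overlap was 6 with library totals only and 7 without Control replicate 3, both chosen after seeing the data. The share over all genes was not counted in those settings, so nothing is read from these numbers. Leaving out each library in turn gave 3245 to 5280 genes called in all, against 4775 with all libraries. Lower genes numbered 1448 to 2680, against 2365, and were fewest without PM2.5 replicate 1. Of the haem pathway genes 9 to 17 were called, against 14, with 2 to 5 higher, against 2, and 7 to 12 lower, against 12. With the longest coding transcript as gene length, chosen after seeing the data, the HMOX1 share of haem oxygenase transcripts was 64.7% in PM2.5 libraries and 97.5% in Control libraries. The shift in this share follows from the lengths, 2405 and 1822 bases for HMOX1 and 3793 and 2147 bases for HMOX2. The cause of the shifts on leaving out libraries was not tested. With the deposited lengths in place of merged exon lengths nothing could differ, since the lengths are equal. The labels number replicates 1 to 3 in both groups, but same-numbered libraries did not deviate together (correlations of -0.002, -0.051 and -0.122). With 3 libraries per group, each centred on its group mean, this cannot show whether the cultures were paired. With a replicate block 3777 genes were called, against 4775 without, and 11 haem pathway genes, against 14. In no same-numbered pair was each library the best match of the other. At this depth 0 counts allow up to 0.0865 to 0.0942 CPM in a library.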
